A study of Mus musculus with 6 samples.

Results

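Transcripts of 42 genes of the interferon response were examined in sorted mouse Sertoli cells with and without Rb1. The set holds interferon receptors, the IRF factors with Stat2, and interferon-stimulated genes. Every array probe that the platform annotation assigns to a member was taken, which gave 83 probes for 41 of the 42 genes, among 19057 named genes on the array. Ifi44 had no named probe. Members are listed by symbol, with no measured value in the rule, but the list was drawn up with earlier results of these data known. The comparison asks whether loss of Rb1 alters expression of this set.

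Each of 6 Illumina bead arrays carried RNA from Sertoli cells, the somatic cells that nurse germ cells inside the seminiferous tubule. The mice were 6 weeks old, of a C57B6J/129SvEv background, and their Sertoli cells were labelled by Sox9-GFP and sorted by fluorescence. The 3 cKO arrays come from Rb1 flox/- animals that also carried Amh-Cre, in which the Amh promoter drives the recombinase in Sertoli cells. The 3 control arrays come from Rb1 flox/- animals without Cre, so the controls too lacked 1 allele of Rb1, and an effect of Cre cannot be told apart from loss of the remaining allele. The labels do not say whether arrays of a group were separate animals or pools, and if they were not separate, the p-values reflect technical spread alone.

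Interferons are secreted proteins that put cells into an antiviral state. Type I interferons bind the receptor made of Ifnar1 and Ifnar2, and an activated complex that holds STAT2 and IRF9 binds a promoter element called the ISRE. Interferon gamma binds Ifngr1 and Ifngr2, and its signal acts through an element called GAS, for example in the promoter of Irf1. The products of the induced genes degrade, sequester or sense viral nucleic acid, and Sertoli cells are known to switch on such genes when exposed to interferon or virus.

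The elements can be read in the promoters. RefSeq windows (build GRCm38.p6) from 250 bases before to 50 after a transcription start were at hand for 35 of the 42 members, 43 windows in all. A core of the ISRE was searched as GAAANNGAA and the GAS as TTCNNNGAA, each on both strands, and the motifs can overlap. The ISRE core lay in 41.9% of the member windows and in 8.6% of all 32851 windows, and GAS in 30.2% and 8.3%. With 1 more A at its 3′ end, the ISRE core lay in 34.9% and 3.4%. The stretches below belong to the 6 members with the smallest p in the array comparison among those whose window held a match. They are shown to let the reader see what the promoters of the genes described next contain, with matches in capitals, 5′ to 3′ along the gene's strand. A match is a run of letters and not a measured binding site.

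Irf1, chr11:53769884-53769972, plus strand, with a GAS match from 90 to 82 bases before the start:
Irf1: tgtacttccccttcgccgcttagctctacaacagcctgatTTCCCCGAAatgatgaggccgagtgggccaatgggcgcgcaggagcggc
Ifitm2, chr7:140955962-140956047, minus strand, with an ISRE core from 46 to 38 bases before the start:
Ifitm2: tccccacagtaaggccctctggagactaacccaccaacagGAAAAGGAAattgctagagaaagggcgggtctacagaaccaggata
Ifitm3, chr7:141010715-141010744, minus strand, the first 30 transcribed bases, with ISRE cores at bases 3 to 11 and 20 to 28 and a GAS match at 14 to 22:
Ifitm3: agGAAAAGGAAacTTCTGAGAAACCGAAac
Isg15, chr4:156200836-156200936, minus strand, with 3 overlapping ISRE cores from 78 to 58 bases before the start:
Isg15: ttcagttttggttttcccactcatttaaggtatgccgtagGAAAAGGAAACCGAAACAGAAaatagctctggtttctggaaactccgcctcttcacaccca
Bst2, chr8:71537548-71537648, minus strand, with a GAS match and 2 ISRE cores from 136 to 116 bases before the start:
Bst2: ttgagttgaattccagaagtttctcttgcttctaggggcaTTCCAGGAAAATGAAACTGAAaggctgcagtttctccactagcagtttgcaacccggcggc
Ifit3, chr19:34583334-34583475, plus strand, with 3 ISRE cores on the opposite strand, the first from 155 to 147 and the last from 102 to 94 bases before the start:
Ifit3: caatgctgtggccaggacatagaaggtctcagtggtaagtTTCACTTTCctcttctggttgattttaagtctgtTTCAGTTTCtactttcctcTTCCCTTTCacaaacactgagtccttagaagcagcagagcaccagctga

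The windows of Oasl2, Ifitm1 and Xaf1 held neither motif, and no window of Parp14 was at hand. Of 7 members with a window that no array detected, 4 held an ISRE core, among them Ifit1 with 3. The 31 windows of the tested members held it in 35.5% of cases.

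Values below are log2 intensities after background correction and quantile normalisation, and differences are cKO minus control. A probe was taken as detected on an array where its detection score was over 0.95, and was tested where at least 3 of the 6 arrays detected it. Between 43.0% and 53.5% of the 45281 probes were detected per array, with a median of 43 to 44 beads per probe, and the number of arrays limits the precision. The arrays of cKO replicate 1 and control replicate 3 stood apart from the rest, at -113.9 and 110.2 on a first principal component with 58.9% of the variance (the others lay between -34.3 and 31.4). The members' median and the differences of some members are therefore also given without them. Differences of other pathway genes and levels of markers are given with all arrays only. The probes of Rb1 gave -1.22 ± 0.32 (SE) and -0.98 ± 0.34, with the groups apart and adjusted p of 0.399 and 0.668 in limma. Where those probes lie relative to the deleted part is not known here. All 15 Sertoli markers with a probe were detected on at least 5 of the 6 arrays, Sox9 and Amhr2 on all 6. The 7 spermatid markers with a probe were detected on all 6 too, so these detections give no measure of purity.

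Of the 41 members with a probe, 9 were undetected on all 6 arrays: Ifnar1, Irf5, Irf7, Ifit1, Oas1a, Oas2, Oas3, Ifih1 and Mx1. That is 22% of them, where 28.4% of all named genes were undetected. These include Irf7, the factor that amplifies type I interferon production, and some antiviral effectors, while other effectors (Isg15, Ifit3 and Oasl2) were detected on all 6 arrays. A further 3 were detected on only 1 or 2 arrays and not tested, and the remaining 29 were tested, by 43 probes. Of all 83 probes, 29 were undetected on every array. An undetected probe shows only that its signal did not exceed background, and a single probe can be a poor one: of these 9 genes Oas3 had 2 probes and the others 1 each.

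**Figure D1:**
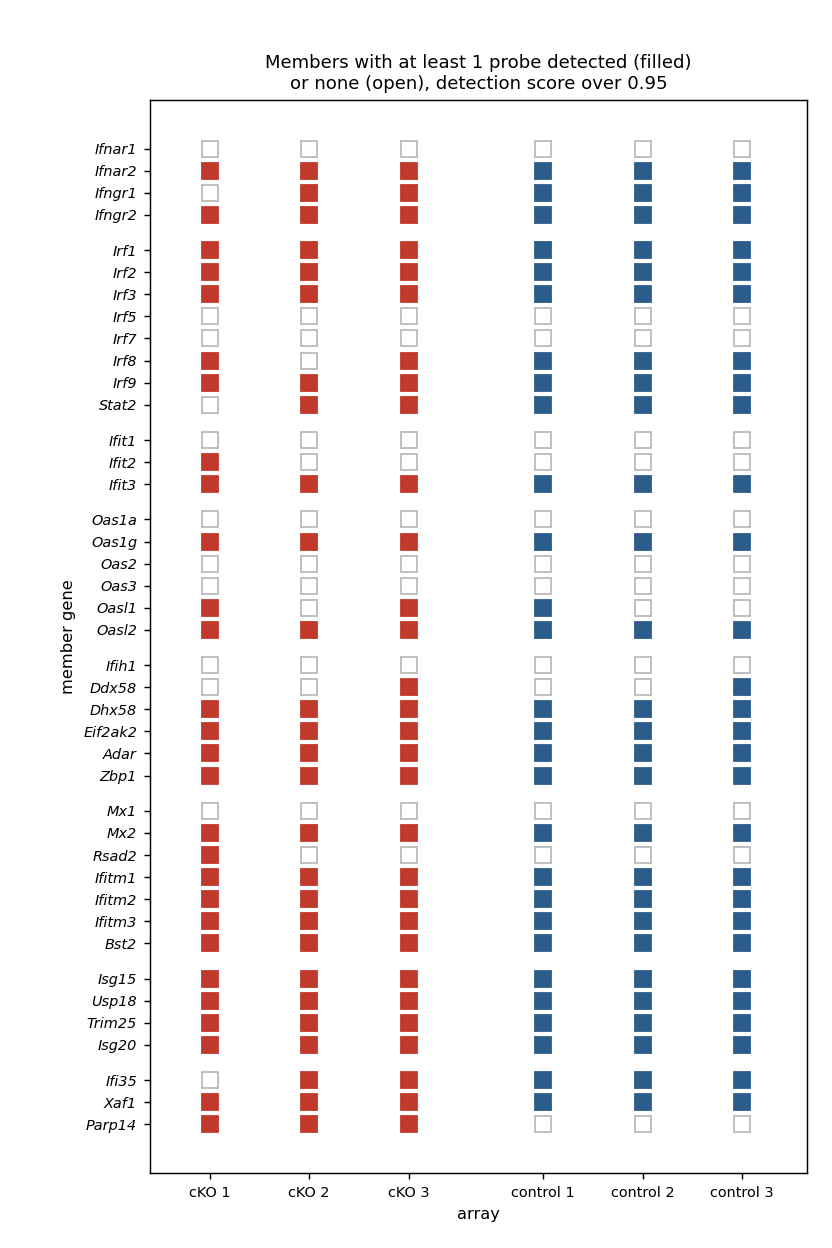
Detection of the 41 members with a probe (rows, by role) on the 6 arrays (columns). A filled square means that at least 1 probe of the gene had a detection score over 0.95, and an open square that none had. Of these genes, 9 are open in every column, and Parp14 is filled on the 3 cKO arrays alone.

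No member passed the threshold. At an adjusted p under 0.05 over all 21805 tested probes, limma called 0 of 43 member probes in either direction, where 0.142% of all tested probes were called higher and 0% lower. Before adjustment, 9 member probes were higher and 0 lower at p under 0.05, against 4.63% and 1.76% of all tested probes. Of the 43 probes, 2 (of Parp14 and Ifitm1) were tested through the cKO arrays alone and could only come out higher, and both are among the 9. With detection on all 6 arrays required, 7 of 34 member probes were higher and 0 lower, against 784 and 332 of all 17222 probes so detected. The member probe with the smallest p, of Irf1, had an adjusted p of 0.111. A fit blocked on the replicate number called 0 of all probes in place of 31 and, as without the block, 0 of the members. By gene, taking the brightest tested probe of each, 19 of 29 tested members had a positive difference (65.5%, with 61.3% over all 12277 tested genes). The median difference was 0.27, beside 0.12 over all tested genes. At an unadjusted p under 0.05 in limma, 7 members were higher and 0 lower, against 5.96% and 1.81% of all tested genes. The 7 include Parp14, and Irf1 and Ifitm1 each hold 2 of the 9 probes counted above. The 3 cKO arrays lay above the 3 controls for 9 members and below them for 0, where 9.56% and 4.33% of all tested genes did so. Parp14 is 1 of the 9 and could only be high there. Within same-numbered arrays, a count chosen after seeing the data, 13 tested members were higher in cKO in all 3 pairs and 4 lower, where 30.5% and 13.9% of all tested genes were. The 13 hold the 9 above by construction, and Isg20, Xaf1, Oas1g and Zbp1, while the 4 are Ifngr1, Usp18, Adar and Ifnar2. Without the filter, the median over all 41 members with a probe was 0.12, beside 0.04 over all 19057 genes. Without cKO replicate 1 and control replicate 3 the median of the tested members was -0.02, and without control replicate 3 alone it was 0.08. Over all tested probes the median was 0.078 with every array, -0.028 without both of these and -0.012 without control replicate 3 alone.

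The 3 tested receptor genes had a median difference of -0.10, and none passed the test. Ifngr1, a chain of the interferon gamma receptor, was at 4.69, 7.45 and 8.84 in cKO (replicates 1 to 3) and at 7.996, 8.63 and 9.39 in controls. On cKO replicate 1 it was not above background, cKO replicate 2 lay below all controls, and cKO replicate 3 lay among them. The difference of -1.68 ± 0.98 (adjusted p 0.766 in limma) was -0.52 without cKO replicate 1 and -0.16 without both arrays that stood apart. Ifngr2, its partner chain, differed by 0.16 with a 95% interval from -0.77 to 1.08, and its other probes gave 0.29 and 0.09. Ifnar2, the signalling chain of the type I receptor, differed by -0.10 (-0.79 to 0.60), and its other tested probe by -0.16. Ifnar1 was undetected.

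Of 6 tested transcription factor genes, Irf1 alone had groups that did not overlap. Irf1, a factor induced by interferon gamma and by NF-kB signals, was at 11.81, 11.02 and 11.64 in cKO and at 8.22, 9.46 and 10.05 in controls. All 3 cKO arrays lay above all controls, and the controls spread more widely (SD 0.93, n = 3) than the cKO arrays (SD 0.42). The difference was 2.25 ± 0.49 (SE), about 4.75-fold, with an adjusted p of 0.254 in limma. Another Irf1 probe was at 9.92, 9.59 and 10.40 in cKO and 6.65, 8.20 and 7.17 in controls, a difference of 2.63 ± 0.44, also with the groups apart (adjusted p 0.111 in limma). Of the dimmer Irf1 probes, 2 gave 0.50 and 0.49 with overlapping groups, and 1 was undetected. Which Irf1 transcript each probe reads is not known here. Without the arrays that stood apart the difference of the brightest probe was 2.49.

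For the other factors the groups overlapped and the 95% intervals included zero. Irf3, the factor that starts interferon transcription after viral sensing, was at 12.29, 11.73 and 11.59 in cKO and 11.76, 11.77 and 11.13 in controls. The groups overlapped, with a difference of 0.32 (95% interval -0.43 to 1.06), while another of its probes gave -0.65. Irf2, which competes with IRF1 for its sites, differed by -0.20 (-0.88 to 0.49). Irf9 and Stat2, partners in the complex that binds the ISRE, differed by -0.10 (-0.79 to 0.59) and -0.30 (-1.30 to 0.69). Stat2 was not above background on cKO replicate 1 and gave 0.04 without it. Irf8, a factor of myeloid cells, differed by -0.19 (-1.08 to 0.69). Irf5 and Irf7 were undetected.

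Of the 3 IFIT genes only Ifit3 was tested. Their proteins bind foreign RNA. Ifit3 was at 7.15, 5.49 and 5.42 on the cKO arrays and at 5.27, 5.26 and 5.02 on the controls. The groups did not overlap, but the difference of 0.84 ± 0.48 (adjusted p 0.766 in limma) was 0.27 without cKO replicate 1. Ifit2 was detected on cKO replicate 1 alone, by 1 of its 2 probes, at 5.75 there and between 4.43 and 4.54 elsewhere. Its other probe and the single Ifit1 probe were undetected on all arrays.

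The OAS genes encode enzymes that make a messenger for RNA decay, and relatives of those enzymes. Oasl2, a relative with ubiquitin-like domains, was at 9.88, 8.30 and 9.28 on the cKO arrays and at 6.99, 7.50 and 7.21 on the controls. All cKO values were higher than all control values, with a difference of 1.92 ± 0.42, or 3.78-fold, and an adjusted p of 0.257 in limma. Its other probes were untested, with 1 detected on a single array and 1 on none. Oas1g was at 6.27, 6.15 and 5.78 in cKO and 6.10, 5.87 and 5.26 in controls. These overlapped, and the difference was 0.32 (95% interval -0.41 to 1.06). Only 1 of the 5 Oas1g probes was detected. Oasl1 differed by 0.04 (-0.66 to 0.75), and Oas1a, Oas2 and Oas3 were undetected. OAS and IFITM genes are families of close copies, and whether a probe also reads a copy cannot be checked without its sequence.

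None of the 4 tested sensors and RNA-binding effectors had groups apart. Dhx58, the RIG-I relative LGP2, differed by 0.27 (-0.68 to 1.21), another probe by 0.35, and a dimmer one gave -0.84 with cKO replicate 1 at background. Zbp1, a sensor of left-handed nucleic acid, differed by 0.26 (-0.50 to 1.03). Eif2ak2, the kinase PKR that halts translation on double-stranded RNA, differed by -0.20 (-1.06 to 0.67). Adar, which edits double-stranded RNA, was at 8.75, 8.99 and 8.63 in cKO and 8.90, 9.25 and 8.94 in controls. The groups overlapped, with a difference of -0.24 (-0.84 to 0.36), and its other tested probes gave 0.07 and -0.11. Ddx58, the sensor RIG-I, was detected on cKO replicate 3 and control replicate 3 alone, and Ifih1, the sensor MDA5, on none.

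Membrane restriction factors held 4 of the 9 members whose arrays did not overlap. IFITM proteins sit in membranes and block the fusion of entering viruses. Ifitm2 was at 7.68, 7.93 and 9.40 on the cKO arrays and at 6.30, 6.18 and 6.29 on the controls. The controls were tight (SD 0.07, n = 3), and cKO replicate 3 was the highest. The difference was 2.08 ± 0.46, or 4.23-fold, with an adjusted p of 0.256 in limma, and 1.55 without cKO replicate 3.

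Ifitm3, the member of the family best known for blocking influenza virus, was at 9.76, 7.99 and 8.78 in cKO and 7.45, 6.80 and 6.67 in controls. Here cKO replicate 1 was the highest. The difference was 1.87 ± 0.48, or 3.67-fold (adjusted p 0.369 in limma), and 1.26 without the arrays that stood apart. Ifitm1 was at 8.39, 8.11 and 9.39 in cKO and 7.86, 7.52 and 7.76 in controls. These groups were apart too, with a difference of 0.91 ± 0.37 (adjusted p 0.762 in limma), which was 0.53 without cKO replicate 3. A dimmer Ifitm1 probe, above background on the cKO arrays alone, was at least 1.52-fold higher in cKO. That bound sets the cKO mean against, on each control array, the higher of the probe's value and the lowest value of any detected probe. The other 3 Ifitm1 probes were undetected.

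Bst2, or tetherin, which ties budding virus to the cell surface, was at 7.30, 6.58 and 6.59 in cKO and 6.20, 6.49 and 5.84 in controls. The nearest arrays of the groups lay close together. The difference was 0.65 ± 0.32 (adjusted p 0.766 in limma), and 0.24 without the arrays that stood apart. Mx2, a dynamin-like GTPase of antiviral defence, differed by 0.38 (95% interval -0.90 to 1.66), and Mx1 was undetected. Rsad2, which encodes viperin, was detected on cKO replicate 1 alone, at 5.72 there and between 4.37 and 4.92 elsewhere.

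**Figure D2:**
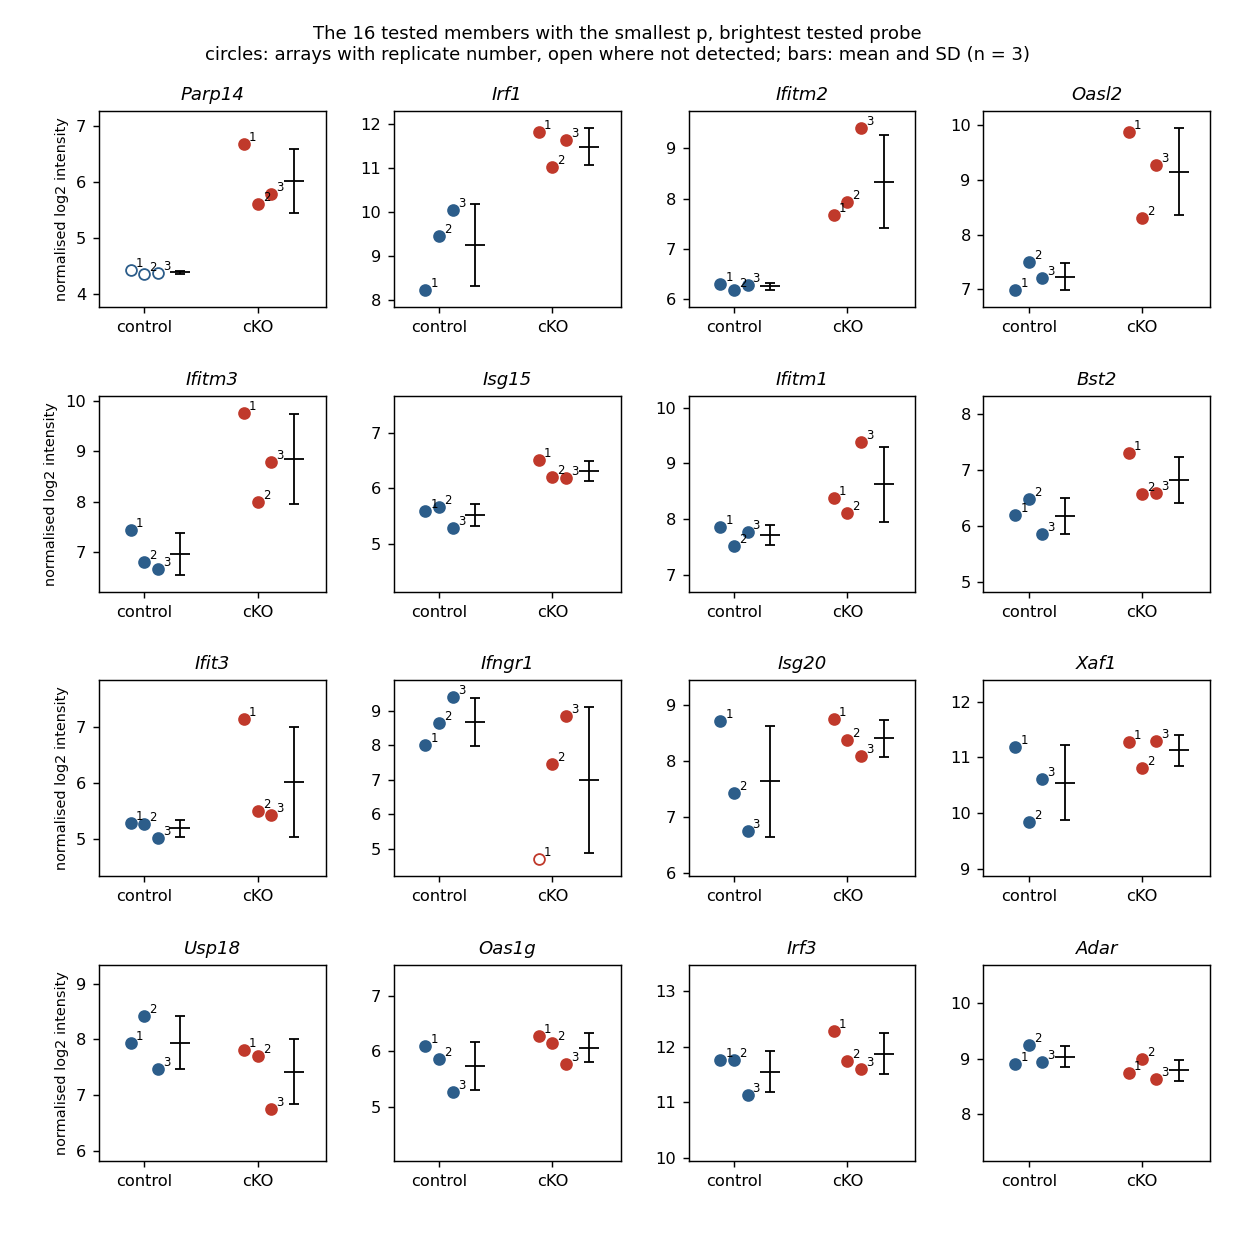
Normalised log2 intensity on each array for the 16 tested members with the smallest p (brightest tested probe), controls in blue and cKO in red, with the replicate number beside each circle. Open circles were not detected, and bars show the mean and SD of 3 arrays. The first 9 panels, Parp14 to Ifit3, have no overlap of the groups, and for Ifngr1 cKO replicate 1 is the open circle at 4.69.

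Isg15, a ubiquitin-like protein attached to others during the response, had the smallest standard error of the 9 members whose groups were apart. It was at 6.51, 6.21 and 6.19 on the cKO arrays and at 5.59, 5.67 and 5.29 on the controls. The difference was 0.79 ± 0.26, or 1.72-fold, with an adjusted p of 0.617 in limma. Usp18, which removes ISG15 and damps the type I receptor, lay the other way, at 7.80, 7.71 and 6.75 in cKO and 7.93, 8.41 and 7.47 in controls. Its groups overlapped, with a difference of -0.52 (95% interval -1.44 to 0.40), which was -0.19 without cKO replicate 3. Within same-numbered arrays it was -0.13, -0.71 and -0.72. Isg20, an RNA exonuclease, was at 8.75, 8.38 and 8.10 in cKO and 8.73, 7.43 and 6.75 in controls. Control replicate 1 reached the cKO values, and the difference of 0.77 (-0.41 to 1.96) was 1.32 without that array and 0.33 without control replicate 3. Trim25, a ligase that activates RIG-I, differed by 0.15 (-0.58 to 0.88).

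Parp14, an ADP-ribosyltransferase, had the smallest p among the brightest tested probes. It was at 6.68, 5.61 and 5.79 on the cKO arrays and at 4.41, 4.36 and 4.37 on the controls. No control array had it above background, and all cKO arrays did. It was at least 1.98-fold higher in cKO, as a bound, with an adjusted p of 0.196 in limma. Its other probes were undetected or seen on a single array. Xaf1, an inhibitor of XIAP that favours apoptosis, was at 11.28, 10.81 and 11.30 in cKO and 11.18, 9.84 and 10.61 in controls, which overlapped, a difference of 0.58 (95% interval -0.32 to 1.49) that was 0.23 without control replicate 2. Ifi35 differed by -0.10, with a 95% interval from -1.33 to 1.13, and by 0.53 without cKO replicate 1, where it was not above background.

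**Figure D3:**
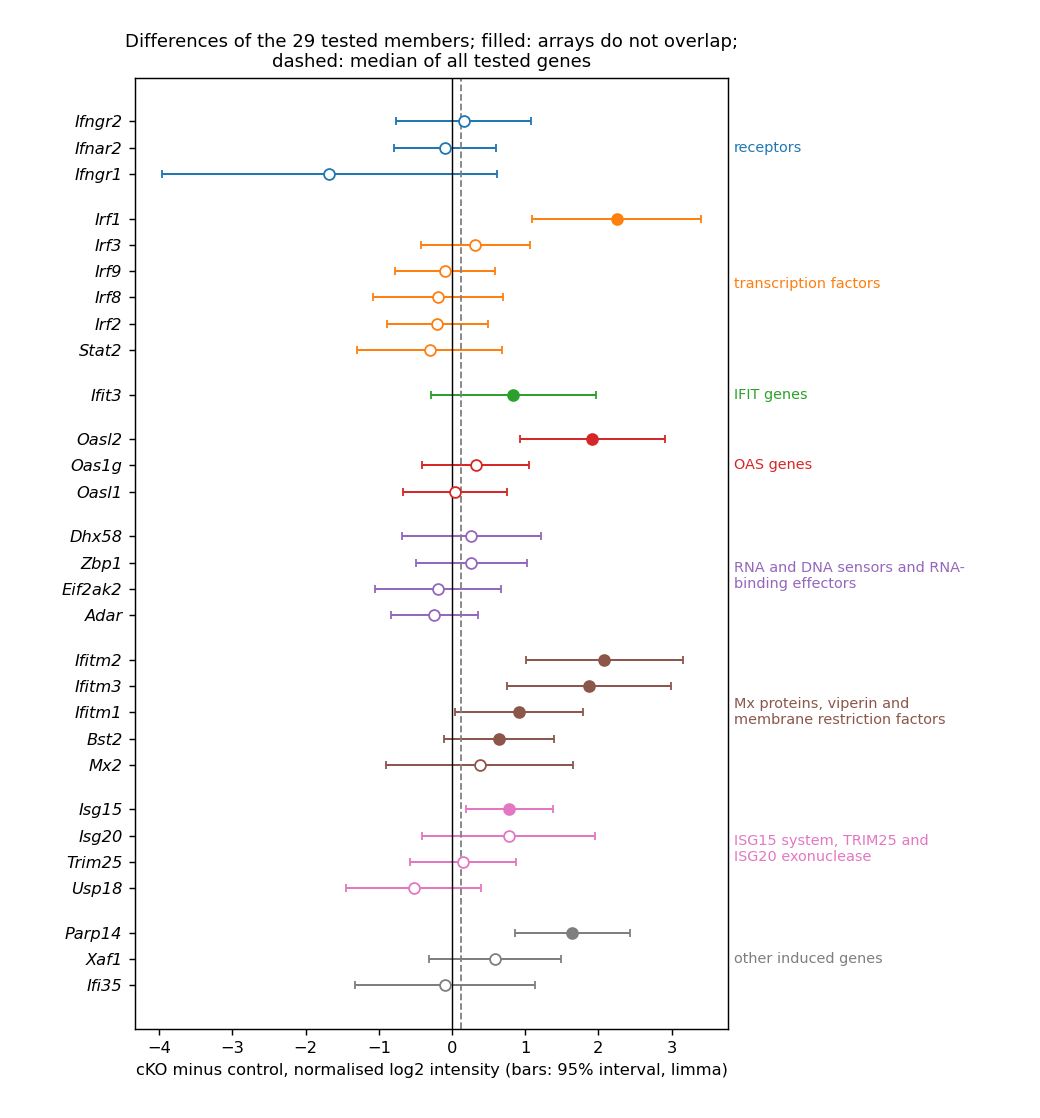
Difference between cKO and control (log2, x axis) for the 29 tested members by role, with 95% intervals from limma. Filled circles mark the 9 members whose arrays did not overlap, and the dashed line the median of all tested genes, 0.12. Irf1, Ifitm2, Oasl2, Ifitm3 and Parp14 lie farthest to the right, between 1.64 and 2.25, and Ifngr1 farthest to the left.

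Other genes of the pathway were read from lists of interferon ligands, sensing upstream of interferon, kinases with their partners and brakes, and further interferon-stimulated genes. Of 85 genes, 38 were tested, and 0 passed in either direction in limma, where 0.195% of all tested genes passed as higher and 0% as lower. At an unadjusted p under 0.05, 8 were higher and 0 lower, against 5.96% and 1.81% of all tested genes. Among the 8, Cxcl10 was tested through its cKO arrays alone and could only be higher. The arrays did not overlap for 9 higher genes, Cxcl10 again among them, and 1 lower, against 9.56% and 4.33% of all tested genes. The median was 0.17 over the 38 and 0.12 over all tested genes.

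Further interferon-stimulated genes had a median of 0.40 over 19 tested genes, with 16 positive differences. Gbp2, a GTPase of interferon gamma responses, was at 9.69, 8.85 and 8.58 in cKO and 6.70, 7.47 and 5.89 in controls, a difference of 2.35 ± 0.48 (adjusted p 0.195 in limma). The chemokine Cxcl10 was above background on the cKO arrays alone and at least 1.69-fold higher. Ifi30, a lysosomal thiol reductase, and Uba7, which activates ISG15, differed by 1.33 and 1.95. The groups did not overlap for these 4 genes, nor for 3 others of the 19 with positive differences and for Znfx1, at -0.43.

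Kinases and brakes centred on 0.04 over 9 tested genes. Socs3, a brake on JAK kinases induced by STAT3, differed by 1.85 ± 0.49 (adjusted p 0.404 in limma), with the groups apart. Jak2, Pias1 and Ptpn11 differed by 0.47, -0.30 and -0.17, while another tested Jak2 probe gave -0.13. Upstream sensing centred on 0.05 over 7 tested genes, among them Tlr7 at -0.60, Myd88 at 0.44, Ticam1 at -0.33 and Ikbke at 0.22. Another tested Ticam1 probe gave 0.07. Of 19 ligand genes 3 were tested, Ifnab, Ifna6 and Ifnz, at 0.23, 0.13 and 0.17. Their group means were low, between 5.40 and 6.09, and the other probes of Ifnab and Ifna6 were undetected on all arrays. Ifnb1 and Ifng were undetected on all arrays too.

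Markers of other testis cells had higher median differences than the 0.12 of all tested genes. In bulk samples fewer cells of a type and less RNA per cell cannot be told apart. Of 26 macrophage and leukocyte markers 22 had a probe, 18 were detected on at least 1 array and 10 on all 6, and Ptprc, Itgam, Cd3g and Tyrobp were undetected on all arrays. Some others were seen more often in cKO: Adgre1 was detected on 3 cKO arrays and 1 control array, and Csf1r and Lyz2 on 2 and 0. C1qa was detected on 2 and 2, and Cd163 on 1 and 1. Of the tested markers Cd74 had the largest positive difference, 1.70, while Laptm5 differed by 1.13 and Fcer1g by 0.24. The summed level of the 22 markers, in linear normalised intensity, ran from 9449 to 9888 in cKO and from 7418 to 10929 in controls. The median difference over 12 tested markers was 0.69, with 11 positive. The brightest 2 in that sum, Aif1 and Mrc1, differed by 0.68 and -0.83. The summed level of 12 endothelial markers ran from 1695 to 4397 in cKO and from 533 to 795 in controls, with Kdr undetected, 11 detected on at least 1 array and a median difference of 1.02 over 9 tested. The 7 Leydig markers with a probe ran from 2367 to 8659 in cKO and from 1239 to 3054 in controls, with Hsd3b1 undetected and a median of 1.26 over 5 tested. The 8 peritubular markers ran from 7998 to 14685 and from 5213 to 7306.5, with Tagln and Cnn1 undetected and a median of 0.84 over 6 tested. The highest endothelial, Leydig and peritubular sums were those of cKO replicate 1, an array that stood apart. The 12 spermatogonial markers ran from 5330 to 6405 and from 4376 to 5053, with Zbtb16 and Nanos3 undetected and a median of 0.67 over 10 tested. Spermatid markers had a median of 0.23 over 7 tested, 4 of them positive, and overlapping summed levels (82858 to 107060 in cKO, 77909 to 99655 in controls). The 15 Sertoli markers had a median of -0.43, with 14 of 15 differences negative. Their summed levels overlapped (105920 to 117050 in cKO, 115030 to 127700 in controls). Interferon-stimulated genes are expressed in these cells too, and the part of such cells in the members' values was not tested.

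**Figure D4:**
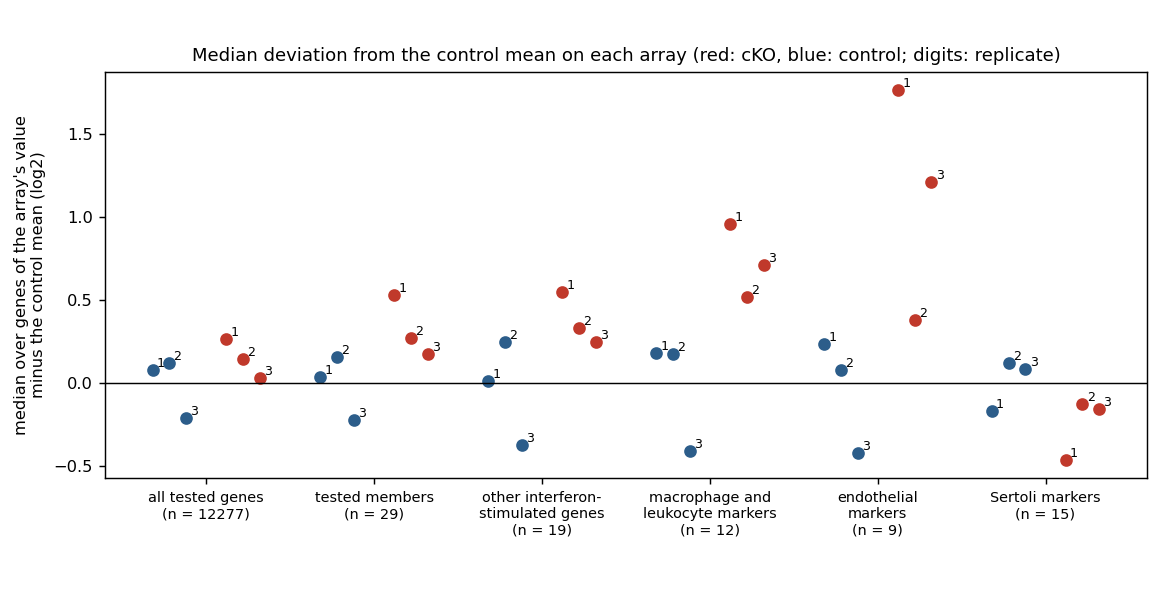
For each gene set (x axis, with the number of tested genes) the median over genes of an array's value minus the control mean (log2), with cKO in red, controls in blue and the replicate number beside each circle. The tested members lie at 0.53, 0.27 and 0.17 on the cKO arrays and at 0.03, 0.15 and -0.23 on the controls, and the endothelial markers at 1.76, 0.38 and 1.21 on the cKO arrays.

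The members' medians per array stand beside those of all tested genes. Over all tested genes the median relative to the control mean was 0.26, 0.14 and 0.03 in cKO, and 0.07, 0.12 and -0.22 in controls. The members had 0.53, 0.27 and 0.17, and 0.03, 0.15 and -0.23. The array of cKO replicate 1 was the highest of the 6 for both sets, and control replicate 3 the lowest.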

How the data were processed

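Per the labels' protocols, RNA came from sorted cells and was made into biotinylated cRNA. The submitters' processing notes name BeadStudio. Per the file headers, the authors deposited for each probe and array a mean intensity, a count of beads and a detection score (a fraction from 0 to 1). The deposited series table holds log2 values, which matched log2 intensities scaled to the upper quartile of each array and then centred by probe median. Column medians were 0.244, -0.022 and -0.194 (cKO), and 0.040, 0.098 and -0.301 (control). Scanner probe numbers were joined to probe IDs through that formula: all 45281 entries had a probe of their own within 0.00040 log2 units, and any 5 of the arrays gave identical matches.

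Of the probes, 34885 carry 1 gene symbol in the platform annotation, 18 carry several and 10378 carry none. Intensities were normalised with neqc (offset 16, background from the detection scores) in limma 3.58.1 (R 4.3.3). Groups were compared with lmFit and eBayes, two-sided, with Benjamini-Hochberg adjustment over all 21805 tested probes. Alternatives changed the background correction, scaling, filter, block and arrays used. The fit was tested on simulated data. A gene stands by its brightest tested probe. Values on every array are given for the 16 members with the smallest p. Up to 4 genes of each other pathway list are named, those with the smallest p. The members and lists were chosen with earlier results of these data known.

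Same-numbered arrays deviated together from their group means (correlations of 0.262, 0.410 and 0.473, each above 0.1), so the numbers may pair the arrays. The reported differences, intervals and p-values come from the fit without this block, and the blocked fit is an alternative. The pairing rests on these correlations alone, since the labels do not say what a number stands for.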

Additional observations from a re-analysis of the deposited data

How the results depend on the processing

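The count of 0 member probes past the adjusted threshold, and of 0 other pathway genes, was the same under all 15 alternatives. The count over all probes higher in cKO, 31, was 0 with the replicate block, 1 without the filter on dim probes, 9 with normexp at offset 50, 12 without background correction, 56 with 1 probe per gene, 6 without both arrays that stood apart, and from 0 to 15 with 1 array left out. The members' median of 0.27 ran from 0.08 to 0.46 with 1 array left out and was -0.018 without both. The median over all tested probes, 0.078, ran from -0.012 to 0.146 with 1 array left out and was -0.028 without both. In an alternative chosen after seeing the data, 9 to 12 members lay wholly above the controls with 1 array left out and 0 to 2 wholly below, while the shares of all tested genes ran from 10.6% to 26.8% above and from 5.42% to 11.8% below. Without both there were 10 and 4, against 13.2% and 15.7% of all tested genes. The 9 that separate over all arrays must also separate in each of these settings, so the counts above could not fall under 9. No sign changed among the 13 members with the smallest p. With 1 array or both left out, the difference crossed zero for Oas1g (-0.018 to 0.499), Irf3 (-0.10 to 0.46), Zbp1 (-0.12 to 0.502), Stat2 (-0.63 to 0.045), Mx2 (-0.39 to 0.81), Dhx58 (-0.15 to 0.64), Eif2ak2 (-0.51 to 0.013), Irf8 (-0.60 to 0.13), Trim25 (-0.10 to 0.37), Ifngr2 (-0.23 to 0.48), Irf9 (-0.30 to 0.12), Ifnar2 (-0.26 to 0.10), Ifi35 (-0.52 to 0.54) and Oasl1 (-0.27 to 0.26). The cause was not tested. Parp14, Ifngr1, Irf8, Stat2, Ifi35 and Oasl1 have no value where detection on all 6 arrays is required. At an unadjusted p under 0.05 in limma, 7 to 10 member probes were higher over the alternatives, where 582 to 2016 of all probes were. Of the member probes 0 were lower, except 1 with the replicate block and 2 without cKO replicate 3. In those 2 settings 1282 and 1230 of all 21805 tested probes were lower. The probes tested numbered 45281 without the filter, 17222 with detection on all 6 arrays and 12277 with 1 probe per gene.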

Other observations

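Of 43 tested member probes, 4 (9.3%) were undetected on cKO replicate 1 and detected on the other 5 arrays, as were 6.57% of all tested probes. Ifngr1 was at 4.69 there and at 7.45 or more on the other 5 arrays, 1 probe of Dhx58 was at 4.47 against 6.68 or more, Ifi35 at 4.56 against 5.81 or more, and Stat2 at 4.88 against 5.23 or more. Other probes of Dhx58 on the same array were at 8.45 and 8.61, within the range of the other arrays. Over all 21805 tested probes cKO replicate 1 was the lowest array for 22.4% and the highest for 35.9% (14.0% and 30.2% of the member probes). Control replicate 3 was the lowest for 41.4% and the highest for 15.9% (37.2% and 14.0% of the member probes). By contrast, cKO replicate 2 was the lowest for 2.55% of all tested probes and the highest for 5.37%.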
